A study of Mus musculus with 38 samples.

Results

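The comparison of Crb2 cKO and control retinas at postnatal day 3 (P3) was drawn from 5 arrays, each hybridized with 1 cKO and 1 control retina. All P3 samples of the series were chosen by their labels, which gives 10 of 38 retinas and 5 of 19 arrays. The study followed single mouse retinas from P0 to P10 on 2-colour Agilent arrays. It asked which transcripts change before and during the first morphological signs of the loss of Crb2. The question at P3 was which genes, pathways and cell types differ between the genotypes, and whether cKO retinas look younger or older than controls.

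The 5 cKO retinas were Crb2 F/F with Chx10Cre+/-, and the 5 controls were Crb2 F/+ with Chx10Cre+/-. Controls therefore carried the same Cre transgene and 1 floxed allele, and were heterozygous for the deletion in recombined cells. Chx10Cre is driven in retinal progenitors and acts as a mosaic, so that a cKO retina holds mutant cells next to cells that kept Crb2. The tissue was the neural retina without pigment epithelium, with no pooling of animals. A single array spot reports Crb2, and it lies downstream of the deleted part of the gene, so that its signal does not check the deletion. By qRT-PCR at P3, the paper found less Crb2 transcript in cKO retinas with primers inside the deleted part. Primers outside that part showed no change.

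Crb2 is a transmembrane protein of the Crumbs complex at the apical side of retinal progenitors, photoreceptors and Muller glia, where it stands next to the adherens junctions that form the outer limiting membrane. In the first postnatal days of the mouse, progenitors are still dividing while rods, bipolar cells and Muller glia are being born, and microglia and vessels spread through the tissue. Loss of Crumbs proteins is known for disturbed lamination and for effects on progenitor proliferation.

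The scanner software marked between 63.9% and 73.2% of the features of a P3 retina as well above their background. All values below are log2 intensities, and differences are cKO minus control within an array, balanced over the dyes. The cKO retina carried Cy3 on arrays 1, 2 and 3, which lie on 1 slide, and Cy5 on arrays 4 and 5, which lie on another, so that dye orientation and slide cannot be told apart. The spread of the log2 differences over all probes (median absolute deviation) was 0.313 on array 1 and 0.302 on array 4, against 0.196, 0.220 and 0.220 on arrays 2, 3 and 5. On the 14 arrays of the other ages it lay between 0.167 and 0.299. Arrays 1 and 4 thus had the widest spread at P3, and several results are also given without them. In the paper's supplementary lists, 1 cKO retina had the lowest RNA integrity and RNA yield of the P3 retinas. Its pair is listed first at P3, which is array 1 if the order is the same. The part of RNA quality in the results was not tested.

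Retinas of a pair also differed in transcripts of other tissues. Transcripts of the lens had a median difference of -3.19 on array 1, 3.05 on array 2, 2.58 on array 3, -0.17 on array 4 and -0.47 on array 5. For Cryaa, a lens crystallin with the brightest probe of the list, the control retinas measured 14.10, 9.81, 10.55, 7.49 and 9.43 and the cKO retinas 10.13, 13.10, 13.87, 7.64 and 8.53. Lens RNA was therefore high in 1 control and 2 cKO retinas. Transcripts of red blood cells differed by 2.85, -1.28, 0.67, -1.86 and -0.86, with Hba-a2, an alpha-globin, at 17.59 in cKO replicate 1 and 10.86 in cKO replicate 4. Xist was high in 2 of 5 cKO and 3 of 5 control retinas and Y-linked transcripts in the others, so that sex was matched on arrays 3 and 4 only. The part of these differences in the results below was not tested, except that sex was tried as a covariate. With that covariate limma called 0 probes. Of those at an unadjusted p below 0.05, 56.3% were higher in cKO retinas, against 44.9% without it.

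Of 39283 probes, limma called 0 (0%) at an adjusted p below 0.05, and the lowest adjusted p was 0.569. At an unadjusted p below 0.05, 1382 probes were higher (3.52%) and 1693 lower (4.31%) in the cKO retinas, together 3075, where 1964 are expected if no probe differed. With Agilent's processed signals, 29.9% of such probes were higher, with loess 56.2%, and in the fit reported here 44.9%. Without array 4 the share was 64.9% and without arrays 1 and 4 it was 62%, so that the balance has no settled direction. The methods' t-test left 1 probe after Benjamini-Hochberg adjustment and 2205 unadjusted. Differences were small: the median absolute log2 difference was 0.09 and the 99th percentile 0.59. With the brightest probe of each of 21526 genes that were measured above background, the median difference was -0.021. Of these genes, 801 were higher (3.72%) and 904 lower (4.2%) at an unadjusted p below 0.05, while 962 were higher (4.47%) and 1845 lower (8.57%) on 5 of 5 arrays. These shares are the background against which the gene groups are read.

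To ask whether cKO retinas look younger or older, each retina was placed on a line from the mean of P0 controls (0) to the mean of P6 controls (1), using 2746 probes that changed between these ages in controls. The P3 controls lay at 0.317, 0.343, 0.414, 0.309 and 0.311 and the cKO retinas of the same arrays at 0.315, 0.307, 0.319, 0.262 and 0.320. The cKO retinas were the younger ones on 4 of 5 arrays, and the groups overlapped. The mean was 0.305 ± 0.0243 in cKO and 0.339 ± 0.0442 in control retinas (SD, n = 5 each), a difference of -0.0342 that did not pass the exact permutation test over the arrays (two-sided p = 0.188). The smallest p that 5 pairs allow is 0.0625, so that the test cannot reach 0.05. The widest gap, -0.0949 on array 3, came with a control retina at 0.414 that lay above the other 4, and without that array the difference was -0.0190. Over the 3 arrays with cKO in Cy3 it was -0.0444 and over the other 2 it was -0.0189. At P0 the cKO mean was 0.0130 against 0, at P6 it was 0.977 against 1 and at P10 1.35 against 1.37 in controls. The paper's supplementary lists of RNA samples and of hybridization pairs give opposite genotypes for the P10 retinas. Values at P10 follow the deposited labels throughout, and the sign of a P10 difference rests on these labels. The controls alone moved by 0.339 between P0 and P3.

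**Figure D1:**
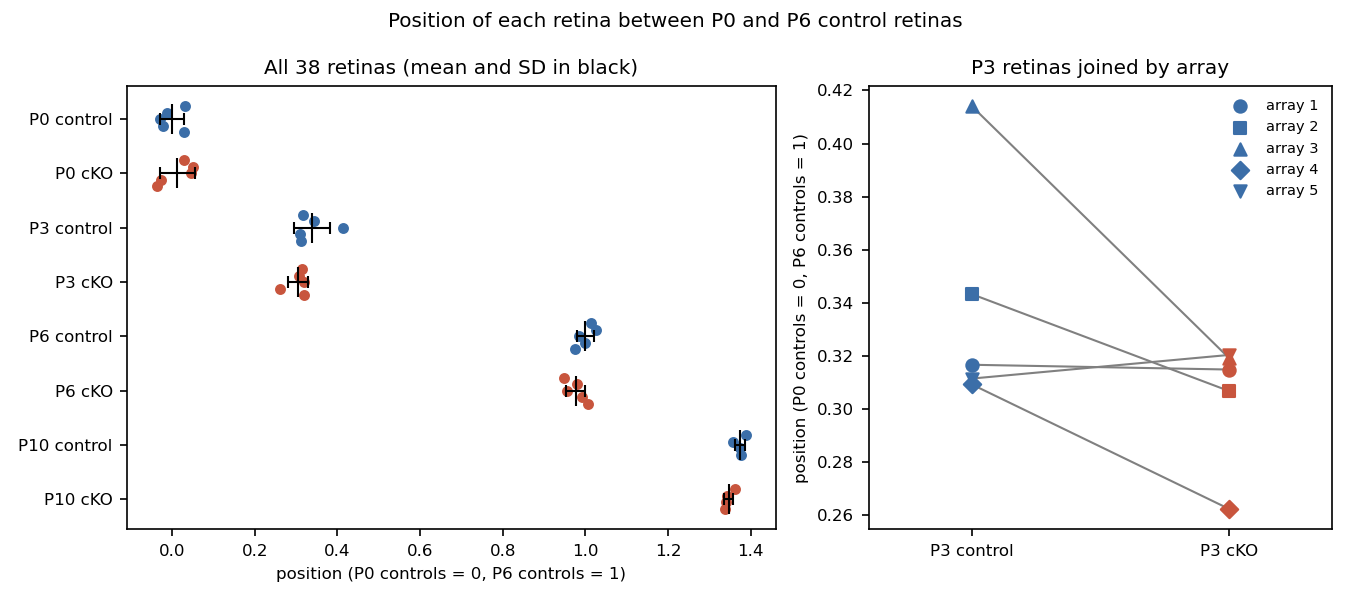
Position of each retina between the P0 control mean (0) and the P6 control mean (1), with all 38 retinas on the left (mean and SD in black) and the P3 retinas on the right, joined by array. At P3 the cKO retina lay lower on 4 of 5 arrays, with control replicate 3 (0.414) and cKO replicate 4 (0.262) at the ends.

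Among the probes that define this axis, those that rise with age carried most of the difference. Of 1607 rising probes, 1156 were lower (71.9%, against 55.7% of all probes) and 451 higher in cKO retinas, with a median of -0.086. At an unadjusted p below 0.05, 191 of them were lower (11.9%) and 14 higher (0.871%). Among all probes, 4.31% were lower and 3.52% higher at that threshold. Of 1139 falling probes, 555 were higher and 584 lower, with a median of -0.0041, while 89 were higher (7.81%) and 7 lower (0.615%) at an unadjusted p below 0.05. Both groups thus leaned towards a younger state at the unadjusted threshold, and limma called 0 of either kind at the adjusted one. Positions over rising probes alone differed by -0.0431 (exact permutation test, two-sided p = 0.125) and over falling probes by -0.0214 (exact permutation test, two-sided p = 0.5). By falling probes the cKO retina was the younger one on 3 of 5 arrays and the older one on arrays 1 and 5 (0.0268 and 0.0204). Without array 4, 47 rising probes were lower and 13 higher, and 36 falling probes were higher and 3 lower. Without array 3, 122 rising probes were lower and 18 higher. Without arrays 1 and 4, 75 rising probes were lower and 16 higher, a choice made after the spread of the arrays was seen. Direction held under these settings, while the number of probes depended on single arrays.

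**Figure D2:**
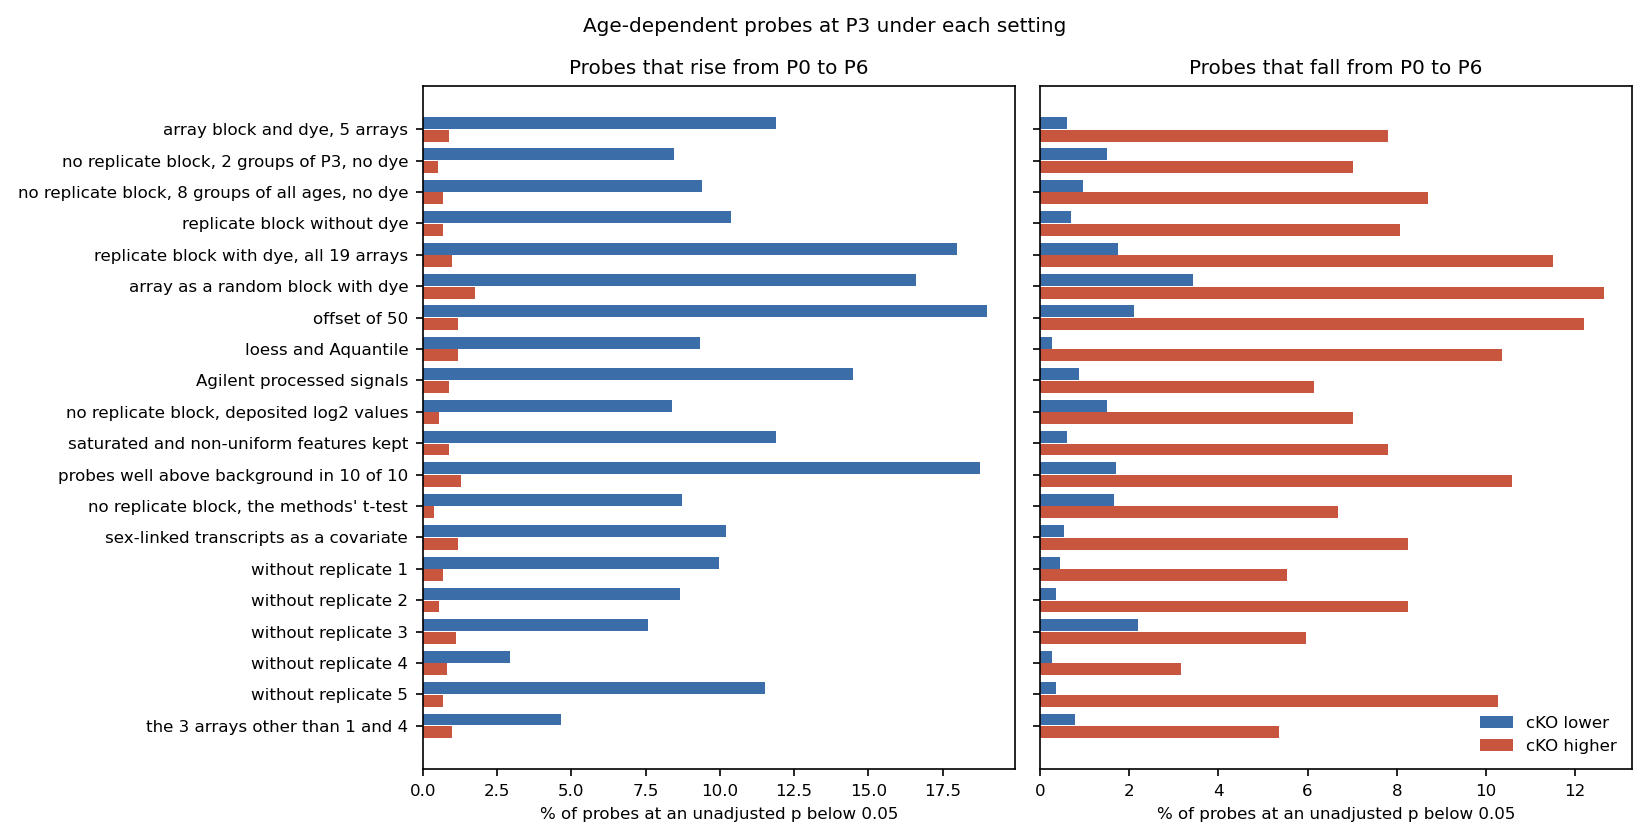
Share of the probes that rise (1607) or fall (1139) from P0 to P6 in controls and that were lower or higher in P3 cKO retinas at an unadjusted p below 0.05, for each setting. Rising probes were more often lower and falling probes more often higher in cKO retinas in each setting drawn.

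Most transcripts of microglia, the resident macrophages of the retina, measured lower in the cKO retinas, but limma called 0 of them at an adjusted p below 0.05. Of 19 markers, 17 were lower, 9 at an unadjusted p below 0.05 and 7 on 5 of 5 arrays, and 0 were higher at that threshold. Over all measured genes, 4.2% were lower at that threshold and 8.57% on 5 of 5 arrays. Without array 4, 0 markers were lower and 1 higher at that threshold. With all 5 arrays the median difference of the list was -0.24, against -0.021 over all measured genes. In a whole retina, fewer cells of a type and less RNA per cell cannot be told apart. The mean level over the list was 9.22, 9.31, 9.22, 9.43 and 9.31 in the control retinas and 9.12, 9.17, 9.23, 8.84 and 9.27 in the cKO retinas. The lowest value belonged to cKO replicate 4, and the groups overlapped.

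Aif1, a calcium-binding protein of macrophages, measured 9.75, 9.62, 9.57, 9.70 and 9.80 in controls and 9.15, 9.24, 9.42, 9.07 and 9.72 in cKO retinas. The cKO retina was lower on every array, and only cKO replicate 5 reached the range of the controls. Its difference was -0.36 (standard error 0.112, limma adjusted p = 0.569). C1qb, a chain of complement C1q, measured 9.25, 9.28, 9.25, 9.21 and 9.09 in controls and 9.03, 9.14, 9.20, 8.31 and 8.88 in cKO retinas, a difference of -0.35 (standard error 0.114, limma adjusted p = 0.569). Trem2, a lipid receptor of microglia, measured 9.44, 9.5, 9.48, 9.56 and 9.54 in controls and 9.13, 9.19, 9.04, 8.93 and 9.53 in cKO retinas, a difference of -0.34 (standard error 0.104, limma adjusted p = 0.569). On array 4 each of the 3 had its largest gap, and without it Aif1 differed by -0.23, C1qb by -0.17 and Trem2 by -0.18. In control retinas Aif1 rose by 1.56, C1qb by 1.00 and Trem2 by 2.00 from P0 to P6 (limma adjusted p = 5.12e-05, 0.000101 and 1.03e-05).

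The size of the microglial difference depended on array 4, where 18 of 19 markers were lower and 14 of them by more than 0.5. The median on arrays 1 to 5 was -0.13, -0.13, -0.052, -0.66 and -0.076. Transcripts of other cells that are not neurons were lower on array 4 as well. Their medians were -1.86 for red blood cells, -0.45 for astrocytes, -0.44 for mural cells and fibroblasts and -0.30 for endothelial cells. The part of these cells in the microglial difference was not tested. Without arrays 1 and 4 the list median was -0.12, without array 5 it was -0.41, and without array 4 it was -0.16, with 0 markers lower and 1 higher at an unadjusted p below 0.05 by limma. Without array 1, 1 was lower and without array 2, 3 were lower, while the list median stayed below 0 in all 22 alternatives. Itgam, an integrin chain of macrophages and the brightest member, went the other way by 0.32 with array values of 0.61, 0.34, 1.13, -1.02 and 0.91. Its other 2 probes differed by 0.044 and -0.051, and its sign turned in 2 of 21 alternatives.

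The 3 promoters are shown because these members moved together, with the core motif of PU.1, a transcription factor of macrophages, in capitals. GAGGAA was searched on both strands in the 250 bases before each start, a choice made after the microglial values were seen. It was found in 10 of the 14 markers in the RefSeq table (71.4%) and in 25.9% of 27025 genes (23.3% of 32851 promoters). A match describes these letters only and is no evidence of binding. The sequences are those of GRCm38.p6 and run 5′ to 3′, upstream of the gene's start, at chr4:136886201-136886450 (minus strand) for C1qb, chr17:48346151-48346400 (plus strand) for Trem2 and chr17:35176053-35176302 (minus strand) for Aif1. The first base of the motif lies at -30, -40 and -7 from the start.
C1qb: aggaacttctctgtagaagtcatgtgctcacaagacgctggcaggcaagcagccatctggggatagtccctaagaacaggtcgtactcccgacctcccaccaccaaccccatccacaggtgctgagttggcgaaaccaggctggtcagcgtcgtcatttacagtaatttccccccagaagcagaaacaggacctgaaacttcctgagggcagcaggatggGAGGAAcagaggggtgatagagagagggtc
Trem2: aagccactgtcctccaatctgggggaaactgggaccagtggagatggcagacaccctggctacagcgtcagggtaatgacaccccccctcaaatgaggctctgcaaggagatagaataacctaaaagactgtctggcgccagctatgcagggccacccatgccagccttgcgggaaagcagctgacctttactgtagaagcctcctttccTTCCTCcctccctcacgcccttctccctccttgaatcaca
Aif1: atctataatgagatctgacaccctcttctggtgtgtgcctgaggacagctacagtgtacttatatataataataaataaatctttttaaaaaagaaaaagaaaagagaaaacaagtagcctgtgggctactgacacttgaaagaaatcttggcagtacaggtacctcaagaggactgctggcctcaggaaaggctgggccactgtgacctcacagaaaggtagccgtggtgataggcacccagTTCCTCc

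**Figure D3:**
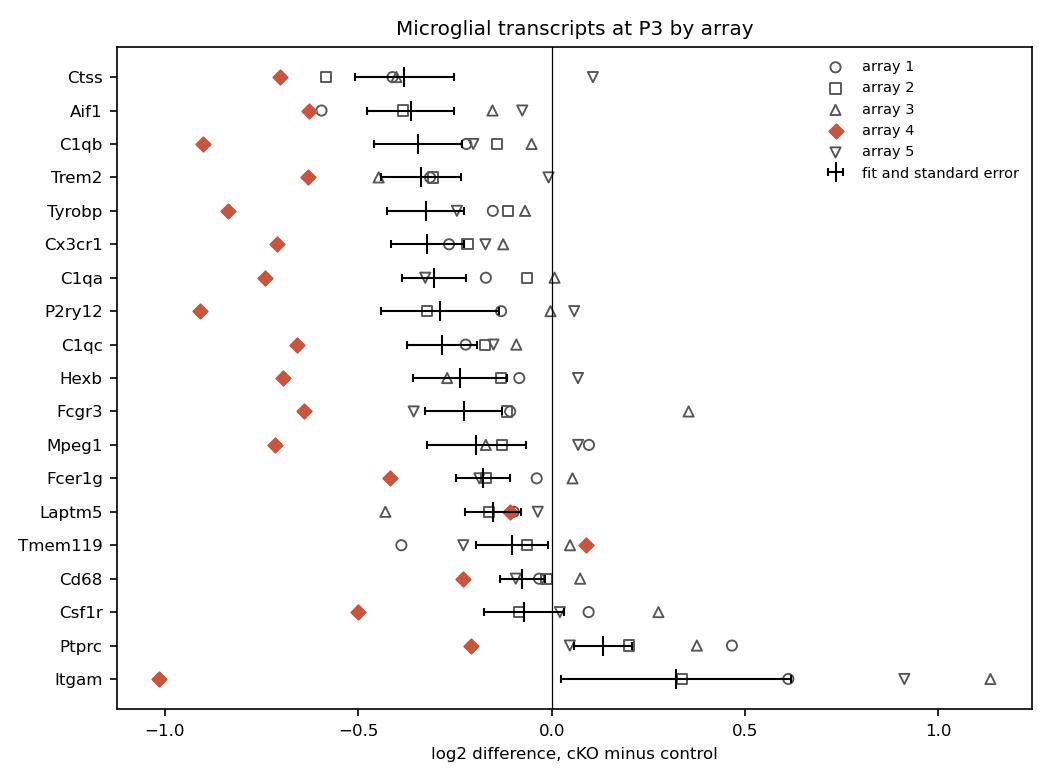
Log2 difference (cKO minus control) of the 19 microglial transcripts on each P3 array, with the fitted difference and its standard error. Array 4, in red, lies lowest for most transcripts, and Itgam and Ptprc are the 2 members with a fitted difference above 0.

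Dividing cells and progenitors showed no common shift. The 15 markers of retinal progenitors had a median of 0.039, with Notch1 and Six3 higher and Hes1 lower at an unadjusted p below 0.05, all named after their values were seen. Rax, a homeobox factor of progenitors and their brightest marker, measured 15.86, 15.81, 15.93, 15.62 and 15.74 in controls and 15.82, 15.58, 15.66, 16.25 and 15.96 in cKO retinas, a difference of 0.12 that was 0.020 without array 4. Hes1, a repressor downstream of Notch, was higher in the cKO retina on arrays 1 to 3 and lower on arrays 4 and 5. Neurogenic progenitors had a median of -0.023 over 12 markers, which was 0.012 without array 1, -0.0034 without array 4 and 0.015 without both. The 20 transcripts of S phase had a median of -0.0011 and the 23 of G2 and mitosis -0.0093, both above 0 under loess. S phase kept its sign in 8 of 21 alternatives and G2 and mitosis in 11 of 21, so that neither has a settled direction. Without array 1 their medians were 0.041 and 0.059, and without array 3 they were -0.025 and -0.076.

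Among the 23 transcripts of G2 and mitosis, 2 were higher at an unadjusted p below 0.05, against 3.72% of all measured genes. Mki67, a chromosome-coating protein of cycling cells, measured 14.47, 14.64, 14.35, 14.51 and 14.58 in controls and 15.31, 14.71, 14.78, 15.20 and 14.73 in cKO retinas. Every cKO value lay above every control value, with the highest on arrays 1 and 4, and the difference was 0.43 (standard error 0.142, limma adjusted p = 0.569). Without these arrays Mki67 differed by 0.20. Cenpe, a kinesin of the kinetochore, measured 13.40, 13.35, 13.09, 13.35 and 13.34 in controls and 13.84, 13.48, 13.44, 13.66 and 13.57 in cKO retinas, a difference of 0.29 (standard error 0.0701, limma adjusted p = 0.569). Cdc20, an activator of the anaphase-promoting complex, was lower on 5 of 5 arrays (-0.15, and -0.094 without array 1), and Birc5, the brightest of the group, differed by 0.0095. Hist1h4c, a histone H4 gene, was higher by 0.49 on 5 of 5 arrays.

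List medians of most neurons were small. The 20 rod transcripts had a median of -0.032 with 0 at an unadjusted p below 0.05, and array medians of 0.12, -0.21, -0.59, -0.041 and 0.22. The -0.59 belongs to array 3, whose control retina was also the oldest by position. The rod median was -0.14 without array 1, -0.14 without array 5, 0.013 without array 3 and 0.0097 without array 4, so that it has no settled direction. Rom1, an outer segment protein and the brightest rod marker, measured 15.97, 16.05, 16.32, 16.07 and 15.98 in controls and 16.34, 15.87, 15.63, 15.86 and 16.06 in cKO retinas. Gngt1, a transducin subunit of rods, was lower on 5 of 5 arrays (-0.16), with its largest gap on array 3 (-0.63) and -0.068 without that array. Of the lists examined, that of rods had the largest median change from P0 to P6 in controls, 3.88. Medians were 0.071 for 8 photoreceptor precursor transcripts (0.0015 without arrays 1 and 4), 0.013 for 12 of cones (-0.019 without these arrays), -0.025 for 18 of ganglion cells and -0.031 for 13 of amacrine cells, the last of which turned above 0 under loess and was -0.0057 without arrays 1 and 4. Without array 5 the ganglion cell median was -0.0002 and that of amacrine cells -0.070, and without array 4 they were -0.044 and 0.022. Without array 1 the medians were 0.0019 for precursors and -0.0021 for cones, and without array 4 they were 0.048 and 0.050. The precursor median was -0.0515 over the arrays with cKO in Cy3. Of the 8 precursor transcripts, 0 were higher and 2 lower on 5 of 5 arrays, Aipl1 (-0.11) and Neurod4 (-0.10). For all measured genes, 4.47% were higher and 8.57% lower on 5 of 5 arrays. The median for 14 bipolar transcripts, 0.0014, turned below 0 with the processed signals, was -0.022 without array 1 and kept its sign in 10 of 21 alternatives. Bhlhe22, a transcription factor of bipolar and amacrine cells, was lower on 5 of 5 arrays (-0.19). Of 13 amacrine members, 3 were lower and 1 higher on 5 of 5 arrays. C1ql2, a secreted C1q-like protein, was lower (-0.16), as was Slc18a3 (-0.14), the vesicular acetylcholine transporter of starburst cells. Gad2, a GABA-synthesizing enzyme of amacrine cells, was higher by 0.35 (limma adjusted p = 0.569), with its largest gap on array 4, and by 0.16 without that array and 0.13 without arrays 1 and 4. Of 18 ganglion cell members, 1 was higher and 0 lower on 5 of 5 arrays, which was Ebf3, a transcription factor, at 0.19 and at 0.094 without arrays 1 and 4.

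Horizontal cell transcripts stood at 0.26 over 5 markers, with 0 at an unadjusted p below 0.05. Onecut2, a transcription factor of these cells, measured 10.53, 10.88, 10.66, 10.51 and 10.53 in controls and 11.44, 10.90, 10.70, 11.21 and 10.76 in cKO retinas, so that the high values came from arrays 1 and 4. Without array 1 the list median was 0.16, without array 4 it was 0.14, without both it was 0.012, and over the arrays with cKO in Cy3 it was -0.024. Muller glia had a median of -0.067 over 12 markers, below 0 on arrays 1 to 4 and above it on array 5, and it was -0.042 without array 4 and 0.023 over the arrays with cKO in Cy5. Dkk3, their brightest marker and a secreted Wnt modulator, differed by 0.050, and by -0.024 without array 5. Reactive gliosis transcripts had a median of 0.012 that turned below 0 with the processed signals, was -0.029 without array 3 and kept its sign in 6 of 21 alternatives, so that it has no settled direction. Of 9 members, 5 were higher and 4 lower. Osmr, the oncostatin M receptor, was higher by 0.27 on 5 of 5 arrays, although well above background in 7 of 10 retinas only. Gfap, an intermediate filament of astrocytes and reactive Muller glia named after its values were seen, differed by -0.81, with array values of -1.95, 0.76, -0.54, -1.35 and -0.74.

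**Figure D4:**
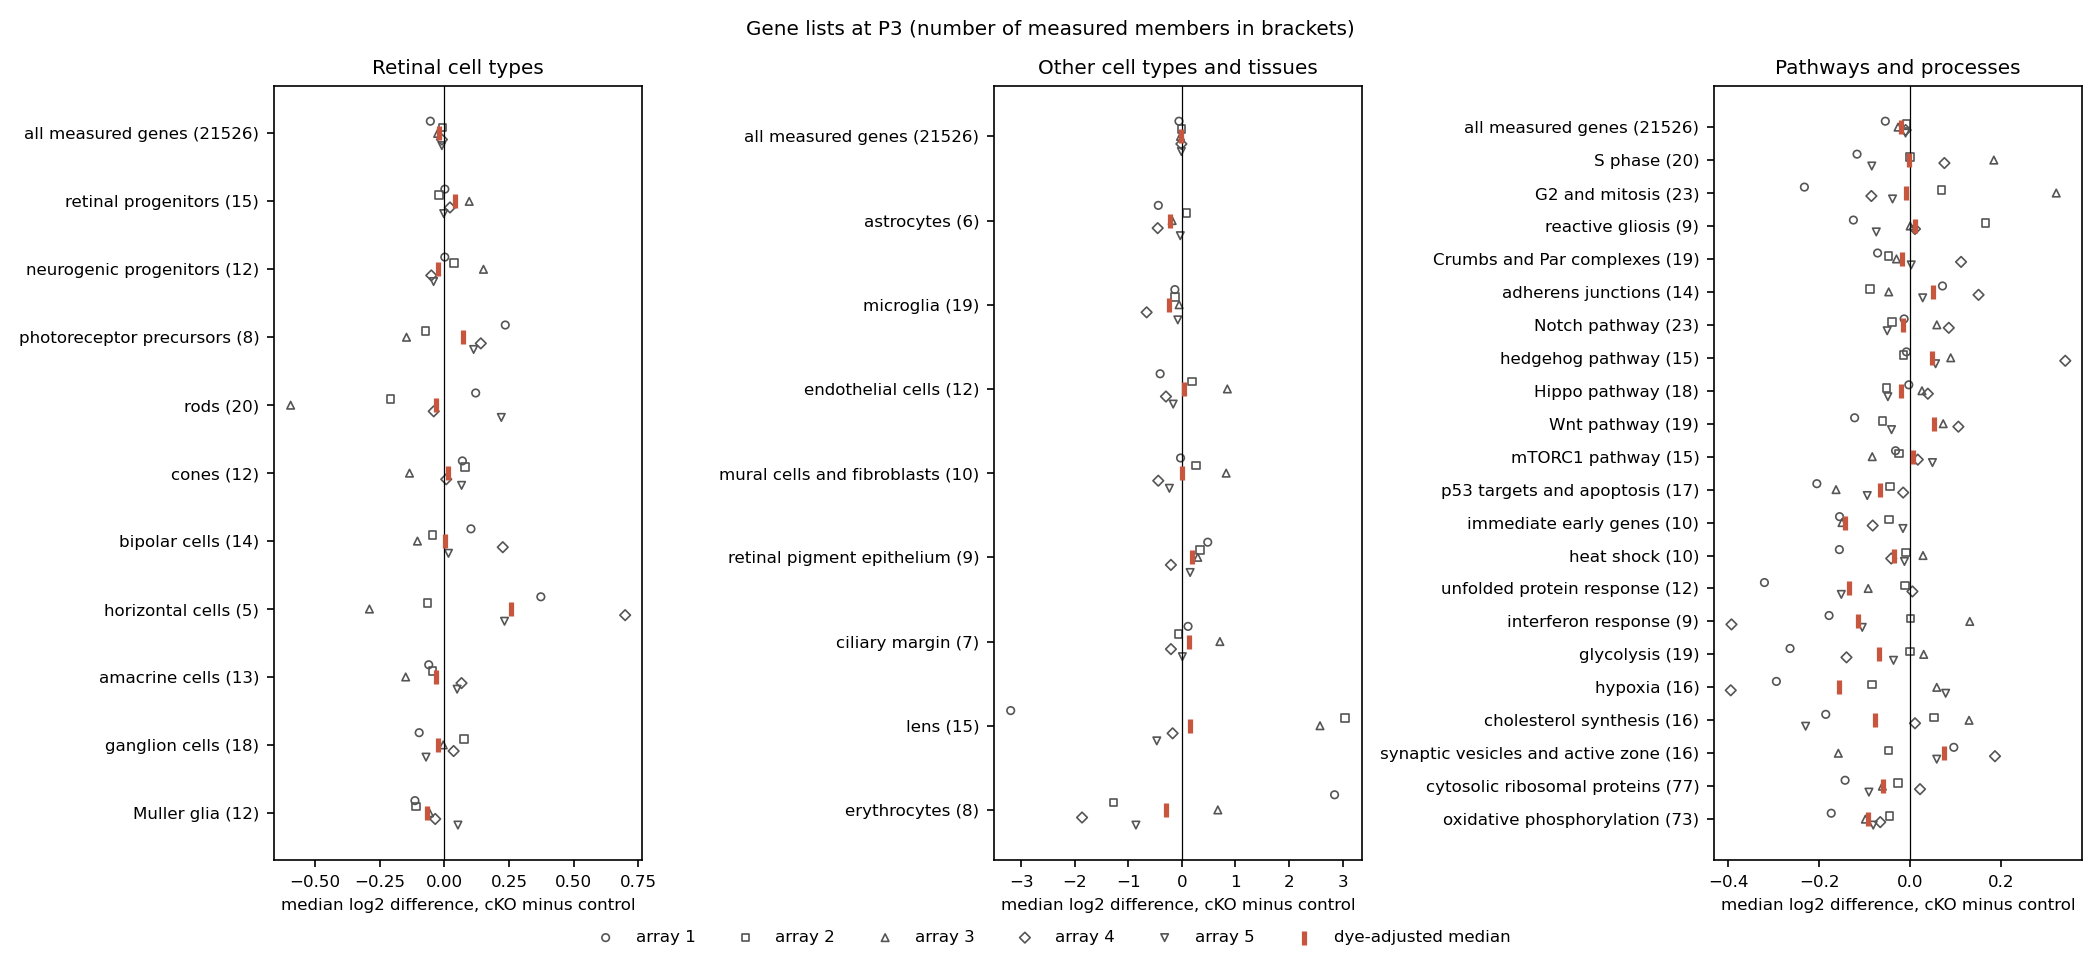
Median log2 difference (cKO minus control) of each gene list on the 5 P3 arrays (open symbols) and after adjustment for dye (red bar), with the number of measured members in brackets and each panel on its own scale. Medians of most lists lie close to 0. Those of microglia, p53 targets, immediate early genes and oxidative phosphorylation lie below 0 on each array.

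Lists of other tissue varied widely between arrays. The 9 measured transcripts of pigment epithelium had a median of 0.18, with 8 of 9 higher and array medians of 0.48, 0.34, 0.30, -0.20 and 0.15. It was 0.11 without array 1, 0.28 without array 4 and -0.0012 over the arrays with cKO in Cy5. Of its members, Tyrp1, Si, Dct and Mlana, named after their values were seen, were higher at an unadjusted p below 0.05. So were 3.72% of all measured genes. Dct, an enzyme of melanin synthesis, measured 12.44, 12.47, 11.49, 12.80 and 12.48 in controls and 13.26, 12.82, 12.52, 12.57 and 12.83 in cKO retinas, lower in the cKO retina on array 4 only. Rpe65, the isomerohydrolase that defines pigment epithelium, exceeded background clearly in 4 of 10 retinas. The median was 0.035 for endothelial cells (below 0 with the processed signals), -0.0017 for mural cells and fibroblasts (above 0 with an offset, loess or the processed signals, and 0.081 without array 1, with the sign kept in 6 of 21 alternatives) and 0.14 for the ciliary margin. Without array 3 the median was -0.066 for the ciliary margin and -0.16 for endothelial cells, and over the arrays with cKO in Cy5 it was -0.10 and -0.29. Kdr, a VEGF receptor, was higher on 5 of 5 arrays by 0.18, and by 0.099 without array 4, whereas another of its probes differed by 0.045. Astrocyte markers had a median of -0.23 over 6 genes, with array medians of -0.44, 0.083, -0.18, -0.45 and -0.029, and it was -0.082 without array 4 and -0.062 without arrays 1 and 4. The lens list had a median of 0.15, which ran from -0.32 to 1.32 when 1 array was left out, and the red cell list one of -0.30, which ran from -0.82 to 0.12.

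List medians of pathways near Crumbs signalling were close to 0. The 15 hedgehog transcripts had a median of 0.049, and 3 of them were higher at an unadjusted p below 0.05 and on 5 of 5 arrays. For all measured genes, 3.72% were higher at that threshold and 4.47% on 5 of 5 arrays. Gli1, a transcriptional effector and target of the pathway, measured 11.45, 11.20, 10.93, 11.39 and 11.34 in controls and 11.82, 11.55, 11.50, 11.76 and 11.46 in cKO retinas. The groups did not overlap, and the difference was 0.34 (standard error 0.0731, limma adjusted p = 0.569). Gli2, another effector, was higher by 0.25 and Hhip, a target that binds the ligand, by 0.24, both with the largest gap on array 4. Without array 4, Gli2 differed by 0.14 and Hhip by 0.11, and Gli1 by 0.27. Another Hhip probe was higher on 2 of 5 arrays. Ptch1, a receptor and target, differed by 0.049, and Ccnd1, a cyclin and the brightest member, by -0.055. In control retinas Gli1, Gli2 and Hhip changed by -5.03, -2.14 and -2.77 from P0 to P6 (limma adjusted p = 2.24e-08, 1.53e-07 and 8.12e-08). Without array 4 the list median was 0.020 and without array 5 it was 0.12. Within the arrays with cKO in Cy3 it was -0.017, and within those with cKO in Cy5 it was 0.16.

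The other pathway lists held 0 or few members at an unadjusted p below 0.05. These were Pard6a in the Crumbs and Par list, Notch1 and Hes1 in the Notch list, and Rheb, the GTPase that activates mTORC1 (-0.22, lower on 4 of 5 arrays), the last named after its values were seen. Medians were -0.017 for the Crumbs and Par complexes, -0.015 for Notch and -0.019 for Hippo, each above 0 under loess. Notch kept its sign in 11 of 21 alternatives and Hippo in 15 of 21, and without array 1 they were 0.021 and 0.0030. The Crumbs and Par median was 0.0053 without array 3 and -0.042 without array 4. Medians were 0.052 for adherens junctions, 0.053 for Wnt and 0.074 for synaptic vesicles, against -0.0085, 0.0016 and -0.014 without arrays 1 and 4, and -0.0030, 0.0017 and 0.039 without array 4 alone. In the synaptic list Rims1 was lower on 5 of 5 arrays (-0.19), whereas another of its probes differed by 0.080. The mTORC1 median of 0.0075 was -0.0098 without array 5 and kept its sign in 10 of 21 alternatives. Pard6a, a scaffold of the Par complex, was lower on 5 of 5 arrays (-0.19), as were Lin7b (-0.16, and -0.11 without array 1) and Lin7c (-0.16, and -0.086 without array 5), which bind the Crumbs partner Pals1. Pard3, another scaffold of the Par complex named after its values were seen, was higher by 0.15 on 5 of 5 arrays. Pvrl1, a nectin of adherens junctions, was higher by 0.16 and Pvrl2, another nectin, lower (-0.15), both on 5 of 5 arrays. Psen2, a subunit of gamma-secretase, was lower (-0.12) on 5 of 5 arrays. The Crb2 probe itself measured 11.33, 11.50, 11.45, 11.41 and 11.35 in controls and 11.71, 11.45, 11.43, 11.63 and 11.37 in cKO retinas, and Crb1 and Crb3 differed by 0.025 and -0.059.

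List medians of oxidative phosphorylation and of ribosomal proteins were slightly below 0, and limma called 0 members of either list at an adjusted p below 0.05. Of 73 nuclear transcripts of oxidative phosphorylation, 68 were lower, 22 of them on 5 of 5 arrays and 7 at an unadjusted p below 0.05, with a median of -0.093. Of all 21526 measured genes, 12227 were lower, with 8.57% lower on 5 of 5 arrays and 4.2% at that threshold. The median of oxidative phosphorylation was below 0 on each array and in 21 of 21 alternatives. That of all measured genes was also below 0 on each array, between -0.0543 and -0.0081. Ndufb4, a subunit of complex I, measured 14.97, 14.84, 15.02, 15.04 and 15.12 in controls and 14.79, 14.84, 14.87, 14.73 and 14.82 in cKO retinas, a difference of -0.21 (standard error 0.0595, limma adjusted p = 0.569). Of 77 cytosolic ribosomal proteins, 66 were lower, 10 on 5 of 5 arrays and 7 at an unadjusted p below 0.05. Their median was -0.060, against -0.021 over all measured genes. The ribosomal median was above 0 on array 4 (0.022), and it was -0.092 without that array and -0.019, close to that of all measured genes, without array 5. Rps10, of the small subunit, was lower (-0.27) and Rpl37a, of the large one, was too (-0.26). In control replicate 1 the ribosomal list had a mean level of 16.01 and that of oxidative phosphorylation 14.36, against 9.83 over all measured genes. The part of this brightness was not tested. COX1, which the mitochondrial genome encodes, went the other way by 0.79 on 5 of 5 arrays. The 12 other mitochondrial probes ranged from -0.11 to 0.56, and 0 of them had 1 sign on 5 of 5 arrays, an examination made after COX1 was seen.

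Medians of the stress lists were below 0 too, and limma called 0 of their members at an adjusted p below 0.05. All 12 transcripts of the unfolded protein response were lower, 3 on 5 of 5 arrays and 2 at an unadjusted p below 0.05, with a median of -0.13. Among the 21526 measured genes, 12227 were lower, with 8.57% lower on 5 of 5 arrays and 4.2% at that threshold. The median of the unfolded protein response was above 0 on array 4 (0.0054), and it was -0.078 without array 1 and -0.083 without arrays 1 and 4. Chac1, a glutathione-degrading enzyme induced in this response, was lower (-0.30) and Pdia4, a chaperone of the endoplasmic reticulum, was too (-0.17). Hypoxia transcripts had a median of -0.16 over 16 genes, but -0.070 without array 1, -0.053 without array 4 and 0.0001 without both. Glycolysis had -0.068 over 19, but -0.030, -0.040 and -0.0071 in the same order. Ldha, lactate dehydrogenase, was lower (-0.17) on 5 of 5 arrays. Immediate early genes had a median of -0.14, and -0.087 without array 4, with Dusp1, a phosphatase, at -0.21. Interferon response genes stood at -0.11, with Psmb8, an immunoproteasome subunit, at -0.33. Without array 4 these were -0.063 and -0.22, and without arrays 1 and 4 the list median was -0.0072. Medians were -0.065 for p53 targets and apoptosis, -0.034 for heat shock (-0.013 without array 1 and -0.0019 without arrays 1 and 4) and -0.078 for cholesterol synthesis. Among p53 targets, Zmat3 was higher (0.22) and Pmaip1 lower (-0.24) on 5 of 5 arrays. In the heat shock list these were Hsp90aa1 (0.10) and Hspb1 (-0.17, and -0.10 with 1 array left out). The cholesterol list had array medians of -0.19, 0.053, 0.13, 0.011 and -0.23, with -0.020 without array 1 and -0.010 without array 5.

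The lowest p-values among well measured genes of 1 sign on 5 of 5 arrays belonged to Cercam, COX1, Mgst2, Rnu1b6, Gm3058, Hist1h4c, Snora47, Hnmt, March11 and Vsig8, each with a limma adjusted p of 0.569. Cercam, named for an adhesion molecule of cerebral endothelium, measured 6.97, 7.00, 7.13, 7.03 and 6.99 in controls and 6.47, 6.46, 6.74, 6.36 and 6.50 in cKO retinas, a difference of -0.53 (standard error 0.0627). Rnu1b6, a U1 small nuclear RNA, was lower by a fitted difference of -0.62, with array values of -1.27, -0.83, -1.01, -0.087 and -0.31. Mgst2, a glutathione transferase, differed by -0.41 and Vsig8, an immunoglobulin-domain protein, by -0.41. Snora47, a small nucleolar RNA, differed by -0.51. March11, a ubiquitin ligase, was higher by 0.43, whereas its other 2 probes differed by -0.12 and -0.19.

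Gm3058, a predicted gene 0.548 Mb from the Crb2 probe, measured 9.13, 8.93, 9.06, 9.16 and 9.33 in controls and 8.38, 8.50, 8.70, 8.57 and 8.51 in cKO retinas, a difference of -0.61 (standard error 0.0857). Its probe lies at chr2:38202883-38202942 of mm9 on the minus strand, and the first 30 of its 60 bases are shown because limma called this gene where all ages shared the spread, without a block (adjusted p = 0.0390) or with each array as a block (adjusted p = 0.0228), while over all alternatives its adjusted p ran up to 0.724. What the annotation places there beyond the gene name is not given in the sources used here.
Gm3058: tcttcctggcctcacaacggaaaggactgt

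Of 664 probes on chromosome 2 no more than 20 Mb away from that of Crb2, 8 (1.2%) had an unadjusted p below 0.01 and 1 sign on 5 of 5 arrays, against 0.611% of all probes, and 7 of the 8 were lower. Besides Cercam, Gm3058 and Hnmt, a histamine methyltransferase, these were Lypd6b (-0.41), Dbh, a pair of transcripts known by identifier only, and Trub2. Trub2, a pseudouridine synthase, was higher by 0.36. Dbh and 1 of that pair were not well above background. The other of the pair lies 7.93 Mb from the Crb2 probe, close to Cercam at 7.92 Mb. Another probe of Trub2 was higher on 2 of 5 arrays, and another of Hnmt lower on 4 of 5. Some of these genes had the same sign at P0 and P6, in a fit to the ratios of all 19 arrays. Cercam differed by -0.41 at P0 and -0.38 at P6, Gm3058 by -0.44 and -0.49, Lypd6b by -0.24 and -0.27 and Trub2 by 0.45 and 0.29. At P10 the differences were -0.10, -0.020, -0.39 and 0.25 by the deposited labels. Their P3 effect was not called different from the mean of P0 and P6 (limma adjusted p = 0.703, 0.670, 0.633 and 0.988), so that a difference between these ages is not shown.

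Among genes well above background in 10 of 10 retinas with 1 sign on 5 of 5 arrays, the largest differences upwards were in Casz1, Rreb1, Gm7265, Meg3 and Gm4250, and their widest gaps were on arrays 1 and 4. Casz1, a zinc finger factor of retinal progenitors, measured 7.32, 7.69, 7.28, 7.53 and 7.37 in controls and 9.98, 8.49, 7.92, 9.0 and 7.97 in cKO retinas, a difference of 1.20 (standard error 0.341, limma adjusted p = 0.569). Its other 4 probes lay between 0.043 and 0.33, with the cKO retina higher on 3 of 5 arrays. Meg3, an imprinted long noncoding RNA, measured 10.21, 9.84, 10.07, 10.06 and 10.15 in controls and 12.23, 10.94, 10.67, 11.18 and 10.44 in cKO retinas, a difference of 0.97 (standard error 0.238, limma adjusted p = 0.569), and its other 2 probes were higher on 5 of 5 arrays by 0.75 and 0.83. Without arrays 1 and 4, Casz1 differed by 0.66, Rreb1 by 0.38, Gm7265 by 0.44, Meg3 by 0.57 and Gm4250 by 0.25. Other probes of Rreb1 differed by 0.37 and 0.38 with all 5 arrays, each with the cKO retina higher on 3 of 5. Under the same limits, the largest differences downwards were in Rnu1b6, Gm3058, Crh, Cd52 and Cercam. Crh, a neuropeptide that rose by 4.05 from P0 to P6 in controls (limma adjusted p = 5.56e-09), was lower (-0.57). Cd52, a surface glycoprotein of leukocytes that rose by 2.03 (limma adjusted p = 4.87e-05), was lower (-0.55) on 5 of 5 arrays, with -1.01 on array 4 and -0.045 on array 5, and -0.31 without array 4.

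**Figure D5:**
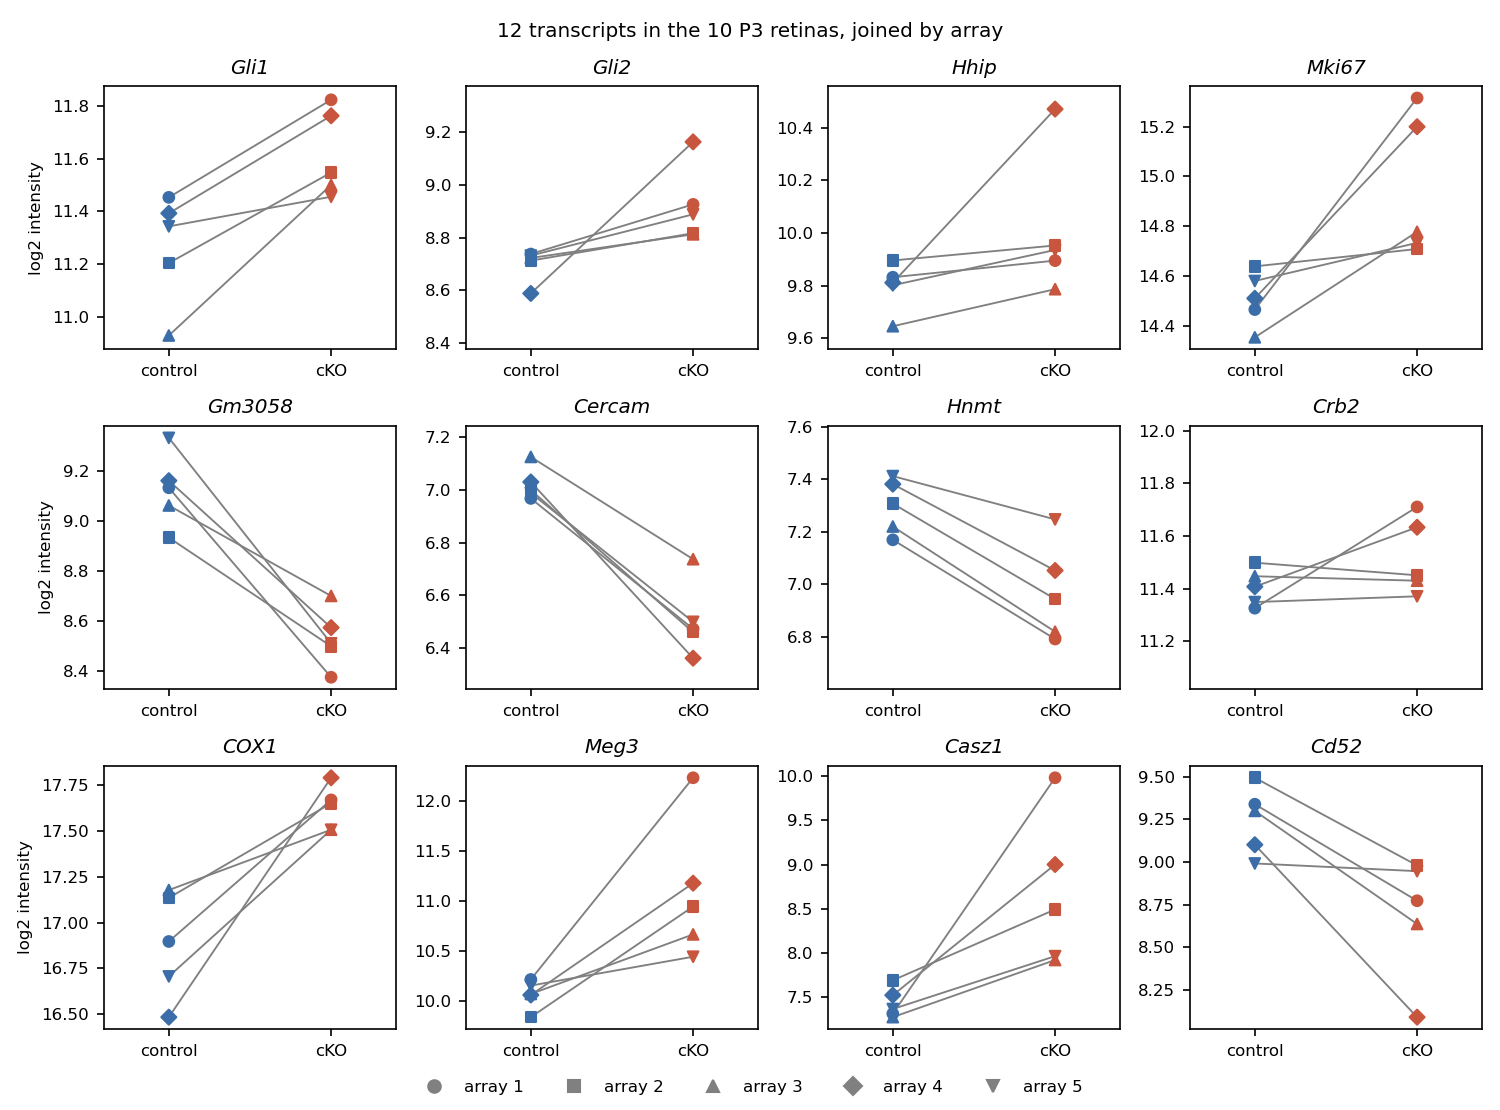
Log2 intensity of 12 transcripts in the 10 P3 retinas, each panel on its own scale, with the 2 retinas of an array joined by a line. On 5 of 5 arrays, cKO retinas lie higher for Gli1 and Mki67 and lower for Cercam and Gm3058.

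The P3 effect was set against the mean of the effects at P0 and P6, which come from other arrays, in a fit to the ratios of all 19 arrays. limma called 0 probes for this difference, with a lowest adjusted p of 0.339 and 3164 at an unadjusted p below 0.05. The median of the microglial list in that fit was -0.22 at P3, 0.067 at P0, -0.096 at P6 and 0.12 at P10. The median for oxidative phosphorylation was -0.086 at P3, 0.035 at P0, -0.040 at P6 and -0.048 at P10. Hedgehog medians were 0.065 at P3, -0.0072 at P0, 0.033 at P6 and 0.0029 at P10. That these lists differ between ages was not tested.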

How the data were processed

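Total RNA of single neural retinas was hybridized to 2-colour Agilent arrays with 1 cKO and 1 control retina per array. The authors deposited scanner intensity values per spot (mean signal and median local background, and processed signals corrected for background and dye), with flags of the scanner software. Per the file headers, probe positions are those of mm9. The authors deposited log2 values after normexp and quantile normalization in limma, whose columns name the group only, and these were used unpaired as an alternative. Columns with the authors' fold changes and p-values were not used.

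From the scanner values, normexp with an offset of 0 and quantile normalization over 38 channels were run in R 4.3.3 with limma 3.58.1 (data.table version 1.17.8), and figures drawn in python 3.11.15 with matplotlib 3.10.9 and numpy 2.4.6. Features saturated (7) or non-uniform (151) on any array were left out, and spots of a probe averaged. limma was fitted to the P3 retinas with array as a fixed block and dye as a covariate, with Benjamini-Hochberg adjustment over 39283 probes and two-sided tests. The number of arrays limits the precision. The array pairs the retinas, as both channels of an array were hybridized together. Deviations from the group means correlated between the retinas of an array over probes, with 0.310, 0.384, 0.445, 0.190 and 0.252 on arrays 1 to 5. The median with the other genotype on other arrays was -0.0628. Taking deviations from each group's own mean by itself pulls that median below 0, so that it is no independent baseline. In the fit without the block, with 2 groups, 2058 probes had an unadjusted p below 0.05.

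A gene counted as measured when its brightest probe was well above background in at least 5 of the 10 retinas, and that probe stands for it. Named genes were the 10 lowest p-values and the 5 largest differences in each direction among named probes well above background in all 10 retinas with 1 sign on 5 of 5 arrays. Up to 3 members of a list with the largest difference of 1 sign on 5 of 5 arrays, and its brightest member, were selected too. So were the Crb genes, Gm3058 and neighbours of Crb2 at an unadjusted p below 0.01. Not all list members selected in this way are named in the text. Which probes count as carrying a gene symbol was settled after the ranked list had been seen. Members and lists were chosen with earlier results of these data known. Of 39429 probes, 26055 had an accession found in RefSeq, 3358 of them with another symbol there, and names are those of the files (Hist1h4c is H4c3, Pvrl1 Nectin1 and Pvrl2 Nectin2 in RefSeq). The fits were tested on simulated data.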

Additional observations from a re-analysis of the deposited data

Results flagged for a closer look

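In 93 groups of 5 values examined, 5 held 1 value whose gap to the nearest other exceeded 0.71 of the range, and chance marks about 1 in 20 groups. The position of P3 cKO replicate 4 was 0.262, with the next at 0.307. The median difference of the microglial list on array 4 was -0.66, with the next at -0.13. Vsig8 in cKO replicate 2 measured 6.86, with the next at 7.07. Gm4250 in control replicate 4 measured 6.78, with the next at 7.11. ENSMUST00000100156, a transcript not well above background at P3, measured 3.38 in cKO replicate 4, with the next at 5.17.

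Hnmt, which breaks down histamine, had opposite signs at P3 and P0 on 5 of 5 arrays each, with a mean difference of -0.33 at P3 and 0.26 at P0. It was 1 of 130 pairs of ages examined, and the difference between P3 and P0 alone was not tested. Against the mean of P0 and P6, the P3 difference of Hnmt stood at -0.46 and was not called (limma adjusted p = 0.339).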

How the results depend on the processing

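The difference in position was below 0 in all 21 alternatives (-0.0450 to -0.0119; leaving out 1 array, -0.0450 to -0.0190), and 0 were called for P3 against P0 and P6 by limma in all 10 alternatives (1553 to 4391 probes at an unadjusted p below 0.05). Of 840 list medians, 6 moved by more than 1 SD: amacrine cells (-0.13), adherens junctions (-0.073) and synaptic vesicles (-0.070) with cKO in Cy3, and Muller glia (0.023), the Crumbs and Par complexes (0.11) and Hippo (0.028) with cKO in Cy5. No named gene of 1 sign on 5 of 5 arrays turned its sign in the alternatives run.

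Without the replicate block, 1 probe was called with 8 groups (Gm3058) and 1 in the methods' t-test (NAP060965-1), and with the block over all 19 arrays 1 (Gm3058), with 5249 at an unadjusted p below 0.05. A random block gave 0 and 4751 by limma. The fit without the block changed no other call. Counts of rising probes lower in cKO retinas were 289 over all 19 arrays, 305 with an offset of 50, 75 without arrays 1 and 4, and 47 to 185 leaving out 1 array. Falling probes higher were 144 with a random block, 139 with an offset of 50, and 36 to 117 leaving out 1 array. Microglial markers lower were 5 with 2 groups, 5 with the block but no dye, 5 with the deposited values and 5 in the methods' t-test, 0 without arrays 1 and 4, and 0 to 12 leaving out 1 array. Unadjusted counts ranged from 2276 to 3036 leaving out 1 array. The causes were not tested.

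Position has no separate value with 8 groups, the block without dye, all 19 arrays, a random block or the methods' t-test, which gives no list median either. Arrays 1 and 4 were left out, and Itgam dropped from the microglial list (median -0.26), after the data were seen. Probes near background limit precision, and the probe with the lowest p was well above background in 0 of 10 retinas.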

Other observations

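Of the 20 probes with the lowest p-values at P3, 11 were well above background in 0 of 10 retinas. The differences of arrays on the same slide correlated over probes, which are not independent replicates, between 0.131 and 0.458 (4 pairs of arrays), and those on different slides between -0.441 and 0.0783 (6 pairs). Since dye orientation and slide go together, their parts cannot be told apart.

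Itgam and Cabp5, a calcium-binding protein of bipolar cells, were lower in the cKO retina on array 4 only and had their widest upward gap on array 3, as did Dct, which was noticed after their values were seen. Itgam differed by 0.61, 0.34, 1.13, -1.02 and 0.91 and Cabp5 by 0.70, 0.47, 1.26, -0.91 and 0.68. Dct differed by 0.82, 0.34, 1.04, -0.23 and 0.35. Other probes of Itgam and Cabp5 differed by -0.051 to 0.044 and by -0.048. What these probes share was not tested.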
